A study of Homo sapiens with 6 samples.

Results

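The 10 genes described here encode enzymes and regulators of polyamine synthesis and of the methionine cycle that feeds it: ODC1, AMD1, SRM, SMS, SAT1, OAZ1, MAT2A, MTAP, GNMT and AHCY. They were chosen by name for their place in these pathways, with earlier results of these data known. All 10 were found by symbol among the 17990 genes of the table. RNA was sequenced from LNCaP, an androgen-responsive line of human prostate cancer cells. The cells had been kept in hormone-depleted serum and were taken after 3, 6, 12, 24 and 48 h with 10 nM dihydrotestosterone (DHT), a potent natural androgen, or untreated at 0 h. Each of the 6 groups had 1 library, so there was no spread between replicates and no test across samples. The DHT libraries differed from the 0 h library in treatment, in time and in library at once, and these cannot be told apart; all comparisons share the 0 h library.

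Polyamines are small positively charged molecules that bind nucleic acids and are needed for growth, and the prostate is known for making and secreting them in large amounts. Ornithine decarboxylase (ODC1) makes putrescine, and spermidine synthase (SRM) and spermine synthase (SMS) each add an aminopropyl group, which comes from S-adenosylmethionine after decarboxylation by AMD1. MAT2A makes S-adenosylmethionine from methionine, MTAP recycles the methylthioadenosine left by the synthases, and GNMT and AHCY belong to the methylation branch of the methionine cycle, in which GNMT methylates glycine and AHCY breaks down S-adenosylhomocysteine.

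ODC1 and SRM are known target genes of the transcription factor MYC, which binds the E-box CACGTG, and the windows of 250 bases before the annotated starts of all 10 members were searched for it on both strands. Of 35116 such windows in the RefSeq table on GRCh38.p14, 6.34% held a CACGTG. Among the members it was found in 1 window of ODC1 and in the window of SRM, which are shown here as stretches of 30 bases on the minus strand with the E-box in capitals.
ODC1, chr2:10448024-10448053, before the second listed start: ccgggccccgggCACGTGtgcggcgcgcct
SRM, chr1:11060200-11060229: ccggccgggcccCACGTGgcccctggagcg
The hexamer AGAACA of the androgen response element, present in 12.4% of all windows, and the cyclic AMP response element TGACGTCA, present in 1.65%, were in no window of a member. The letters TATAAA, found in 10.7% of all windows, occurred in the windows of MAT2A and MTAP. GNMT, the member with the largest change at 48 h, had none of these motifs in its 250 bases (plus strand, with no capitals because nothing matched).
GNMT, chr6:42960504-42960753: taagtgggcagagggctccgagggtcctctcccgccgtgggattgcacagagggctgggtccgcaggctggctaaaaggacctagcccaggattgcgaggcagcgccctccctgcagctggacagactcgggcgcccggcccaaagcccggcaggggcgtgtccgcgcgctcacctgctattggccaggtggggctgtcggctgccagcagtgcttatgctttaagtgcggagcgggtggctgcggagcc

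The libraries held 13179917 to 20587956 counts over the listed transcripts, and the comparison took in the 11916 genes that averaged 20 counts or more per library; all 10 members were among them. Levels are CPM, the counts of a gene scaled to a common library total, and a gene is said to have risen or fallen only where it differed from 0 h by at least 2-fold on the scale of log2(CPM + 1), a fixed rule of size. Intervals are at 95% and cover counting error only. FKBP5, a textbook androgen target, stood at 59.0, 152, 748, 1588, 2286 and 2050 CPM in the order of time. The 8 luminal prostate markers summed to 8578 to 19144 CPM, against 0.399 to 0.969 CPM for 4 basal, 31.8 to 67.1 CPM for 5 fibroblast and 13.8 to 18.8 CPM for 5 leukocyte markers. Of the luminal sum, KLK3 alone held 4727 of 8578 CPM at 0 h and 11950 of 19144 CPM at 48 h. The lowest luminal marker had 344 CPM at 0 h and 133 CPM at 24 h, so the markers did not all rise with the sum. At 0 h the highest fibroblast marker held 62.8 of the 65.9 CPM of its list, and the highest leukocyte marker 15.1 of 15.5 CPM. In the 12 h library genes of chromosome 4 had a median log2 change of -2.15 and those of chromosome 15 one of -0.43, and none of the 10 members lies on either. In these bulk samples, fewer cells of a type and less RNA per cell cannot be told apart.

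Both decarboxylases of the pathway rose, ODC1 most at 24 h and AMD1 most at 48 h. ODC1 stood at 521, 859, 1134, 3188, 4585 and 2751 CPM in the untreated library and then in the DHT libraries from 3 to 48 h. Every DHT library lay above the untreated one, the highest level was at 24 h, and the 48 h library was 0.600 times the 24 h library (0.593 to 0.607). At 24 h the ratio to 0 h was 8.81 (8.59 to 9.03), and the log2 change of 3.14 ranked 51 among 11916 genes. The largest single step was between 6 and 12 h, a ratio of 2.81 (2.76 to 2.86) for the 12 h over the 6 h library.

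AMD1, the other decarboxylase, followed a different course. Its levels were 227, 211, 581, 674, 789 and 1191 CPM in the order of time. As counted, the 3 h library lay slightly below the untreated one and the main step came between 3 and 6 h (2.76-fold, 2.64 to 2.88). That step was not seen with the trend by GC content removed, as given below. The 48 h library was the highest, with a ratio to 0 h of 5.26 (5.06 to 5.47). ODC1 and AMD1 thus stood apart at 48 h: AMD1 was 1.51 times its 24 h level (1.48 to 1.54), while ODC1 was lower than at 24 h.

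The aminopropyl transferases SRM and SMS, which act in sequence, parted after 3 h. SMS, which makes spermine from spermidine, had 43.2, 52.5, 98.9, 209, 274 and 204 CPM. Its level rose with time up to 24 h, where the ratio to 0 h was 6.34 (5.81 to 6.92), and like ODC1 it was lower at 48 h than at 24 h, at 0.744 times (0.712 to 0.778). SRM, which makes spermidine from putrescine, had 195, 231, 147, 186, 189 and 128 CPM. No library moved SRM by 2-fold; the 24 h library was at 0.971 times the 0 h level (0.923 to 1.02) and the 48 h library at 0.658 times (0.620 to 0.698).

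The genes that limit polyamines also differed from each other. SAT1, the acetyltransferase that marks spermidine and spermine for breakdown or export, had 146, 180, 316, 521, 797 and 1105 CPM. Each library was above the one before it, and at 48 h the ratio to 0 h reached 7.54 (7.196 to 7.91). OAZ1, the antizyme that binds ornithine decarboxylase and delivers it to the proteasome, and whose own synthesis needs a ribosomal frameshift promoted by polyamines, had 1161, 1340, 849, 891, 775 and 687 CPM. OAZ1 was above the untreated level at 3 h and below it from 6 h on, at 0.667 times (0.653 to 0.682) at 24 h and 0.592 times (0.577 to 0.607) at 48 h, which is short of 2-fold.

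**Figure D1:**
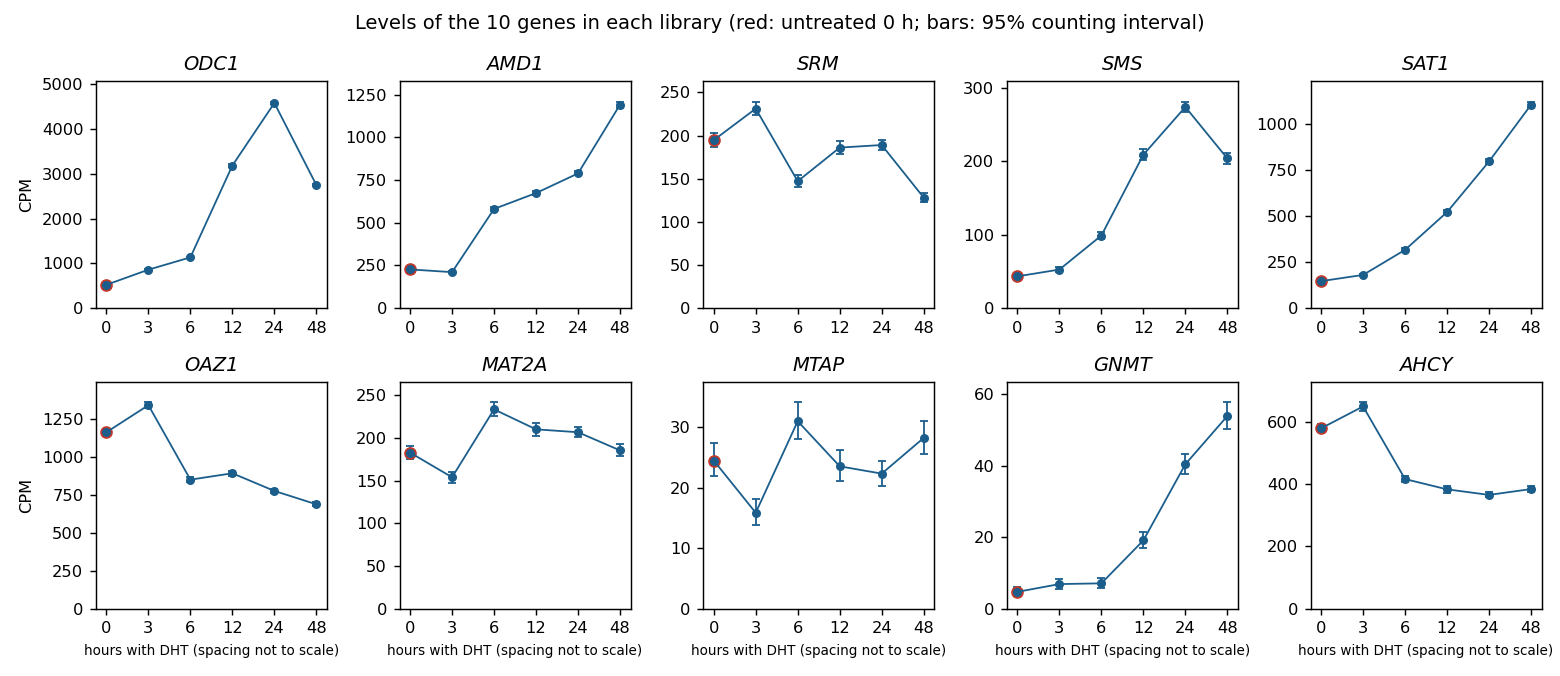
Level of each of the 10 genes in CPM (y axis, from 0) in the 6 libraries in the order of time (x axis, hours with DHT, evenly spaced), with the untreated library as a red point and 95% counting intervals as bars. ODC1 and SMS are highest at 24 h (4585 and 274 CPM), whereas AMD1, SAT1 and GNMT are highest at 48 h (1191, 1105 and 53.8 CPM).

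In the methionine cycle the large change was in a methyltransferase expressed at a low level. GNMT, which uses S-adenosylmethionine to turn glycine into sarcosine and is best known from liver, had 4.70, 6.87, 7.08, 19.1, 40.4 and 53.8 CPM. These levels rest on 62 counts at 0 h, 831 counts at 24 h and 810 counts at 48 h. As counted, the levels at 3 and 6 h were close to each other, and those at 12, 24 and 48 h lay above all earlier ones. At 48 h the ratio to 0 h was 11.4 (8.83 to 15.1), and the log2 change of 3.26 was the largest of any member at any time.

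The enzymes that make and recover the methyl donor moved less. MAT2A had 183, 154, 233, 210, 207 and 185 CPM, with a ratio to 0 h of 1.13 (1.08 to 1.19) at 24 h and 1.01 (0.960 to 1.07) at 48 h. AHCY had 578, 648, 416, 383, 365 and 383 CPM, and from 6 h on every library was below the untreated one, at 0.631 times (0.611 to 0.651) at 24 h, which is short of 2-fold. MTAP, which cleaves the methylthioadenosine left by spermidine and spermine synthesis, had 24.5, 15.9, 31.0, 23.6, 22.3 and 28.2 CPM. The interval of MTAP at 24 h (0.789 to 1.05 times the 0 h level) includes no change.

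Counted over the 10 members, 0 had risen by 2-fold at 3 h, where 0.747% of all genes had. At 6 h 4 had risen (ODC1, AMD1, SMS and SAT1), against 15.3% of all genes. At 12 h there were 5, GNMT being the fifth, against 11% of all genes, and the same 5 at 24 h, against 10.5%, and at 48 h, against 15%. None fell by 2-fold at any time, where 0.864, 3.01, 7.99, 10.8 and 7.33% of all genes had at 3, 6, 12, 24 and 48 h. The 12 h share stands for 952 genes, of which 331 lie on chromosome 4 and 160 on chromosome 15, where no member lies. It is thus too high as a background for the members. The median log2 change of the members was 0.23, 0.43, 0.88, 0.99 and 1.20 in the order of time, beside -0.08, 0.08, 0.03, -0.09 and -0.06 over all genes. The median over members describes a split set, since at 24 h 5 members had 1.79 or more and the other 5 between -0.66 and 0.18. The members were chosen with earlier results of these data known, which limits what these shares and medians show. The binding motif of MYC is in the window before the second listed start of ODC1, not the first, and in the window of SRM. MYC had 398, 163, 120, 120, 65.7 and 124 CPM, a log2 change of -2.58 at 24 h. The part of MYC in the values of ODC1 and SRM was not tested. MAX, the partner of MYC, and METTL16, listed as METT10D, which acts on the MAT2A transcript, had log2 changes of -0.26 and -0.05 at 24 h.

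**Figure D2:**
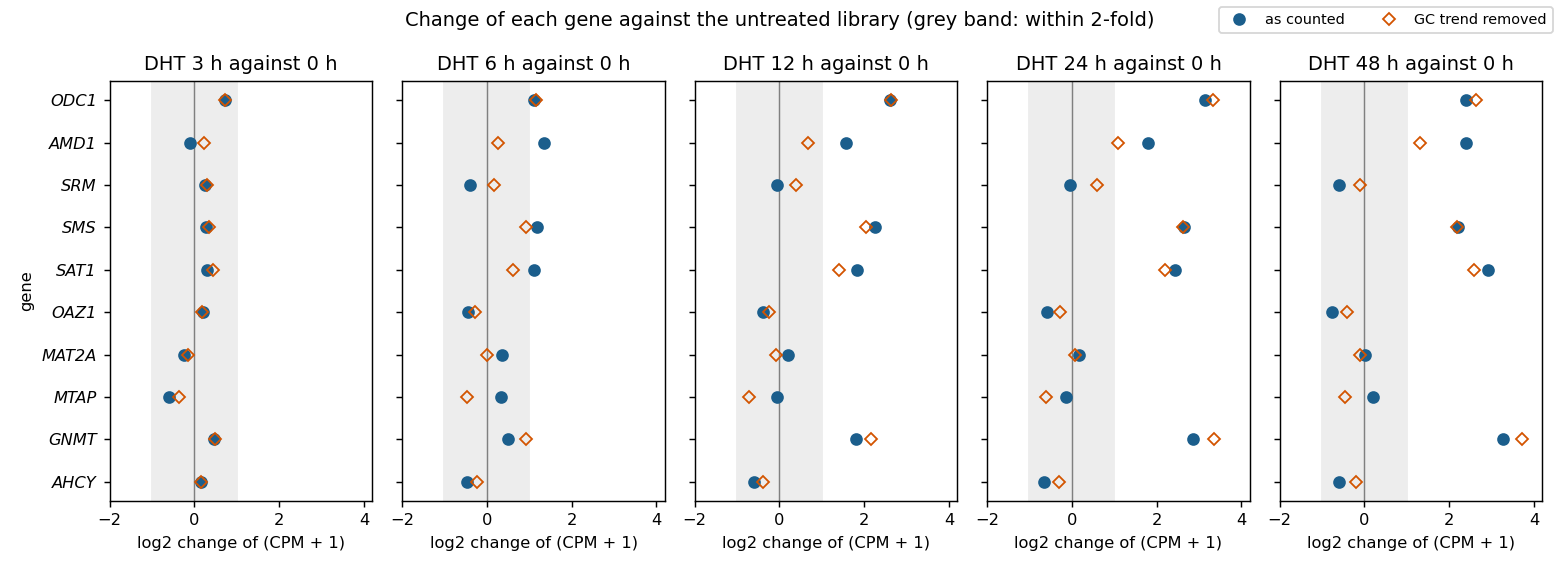
Log2 change of (CPM + 1) of each gene (rows) in each DHT library against the 0 h library (panels, by time), as counted (filled circles) and with the GC trend removed (open diamonds); the grey band is within 2-fold. ODC1, SMS, SAT1 and GNMT lie outside the band at 12, 24 and 48 h by either measure, while AMD1 at 12 h moves from 1.57 to 0.68 with the trend removed.

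The changes of all genes varied with the GC content of their transcripts (r = -0.739 at 6 h and -0.515 at 24 h over 11139 genes, which are not independent replicates), and the members span much of that range. At 3 h the trend had the opposite sign (r = 0.231). AMD1 had a GC content of 38.0%, lower than all but 6.50% of genes, and SAT1 and SMS had 43.8 and 46.5%. ODC1 had 51.2%, GNMT 59.4% and SRM 63.7%. With the trend over all genes removed, ODC1 and GNMT had log2 changes of 3.33 and 3.36 at 24 h, above their values of 3.14 and 2.86 as counted. GNMT then had 0.48 at 3 h and 0.91 at 6 h, beside 0.46 and 0.50 as counted, so these 2 times were less alike. AMD1 had 1.08 at 24 h and 1.32 at 48 h, beside 1.79 and 2.39 as counted. At 6 h only ODC1 was still past 2-fold (1.15), with SMS at 0.91, SAT1 at 0.61 and AMD1 at 0.26. Fewer of all genes had risen at 6 h too with the trend removed, as given below. By this measure AMD1 had 0.22 at 3 h, close to its 6 h value, beside -0.11 at 3 h and 1.35 at 6 h as counted. SRM had 0.59 at 24 h and -0.10 at 48 h, beside -0.04 and -0.60 as counted, so that its sign at 24 h depends on this step. OAZ1 and AHCY stayed below 0 after 3 h, with -0.27 and -0.29 at 24 h. MTAP, of low GC content (40.9%), had -0.61 at 24 h.

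**Figure D3:**
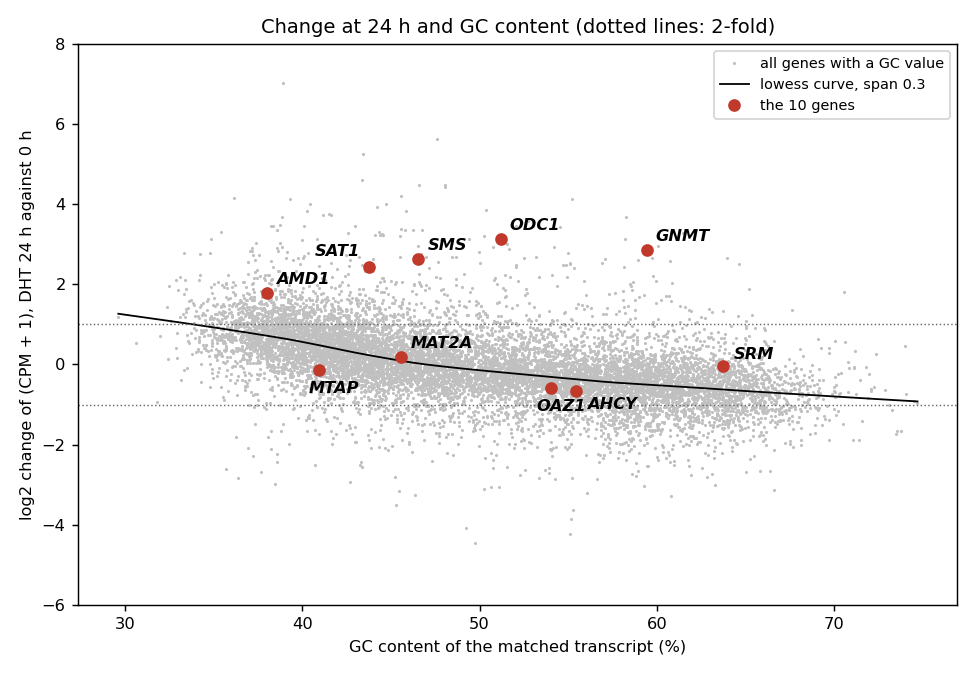
Log2 change of (CPM + 1) at 24 h against 0 h (y axis) by GC content of the matched transcript in percent (x axis) for 11139 genes (grey), with the lowess curve over them (black) and the 10 members (red). GNMT (59.4% GC, 2.86) and ODC1 (51.2% GC, 3.14) lie far above the curve, AMD1 (38.0% GC, 1.79) lies less far above it, and MAT2A is close to it.

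Ratios of counts between 2 members within a library do not depend on how libraries are scaled. The ODC1 to OAZ1 count ratio was 0.448, 0.641, 1.34, 3.58, 5.92 and 4.004 in the order of time. It was thus 13.2 times its 0 h value at 24 h and 8.93 times at 48 h, with ODC1 above its 0 h level and OAZ1 below it in both libraries. The SMS to SRM count ratio was 0.222, 0.227, 0.672, 1.12, 1.45 and 1.59, and at 48 h it was 7.16 times its 0 h value. With the GC trend removed the log2 change of the SMS to SRM ratio was 0.77 at 6 h and 2.05 at 24 h, beside 1.60 and 2.71 as counted. The ODC1 to SAT1 ratio was 1.62 times its 0 h value at 24 h and 0.700 times at 48 h. Its log2 change was 0.69 at 24 h and -0.51 at 48 h as counted, and 1.12 and 0.04 with the GC trend removed, so that its direction at 48 h depends on this step. The MAT2A to AHCY ratio was 0.566 at 24 h, against 0.316 at 0 h, 1.79 times the 0 h value; with the GC trend removed its log2 change was 0.38, beside 0.84 as counted.

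**Figure D4:**
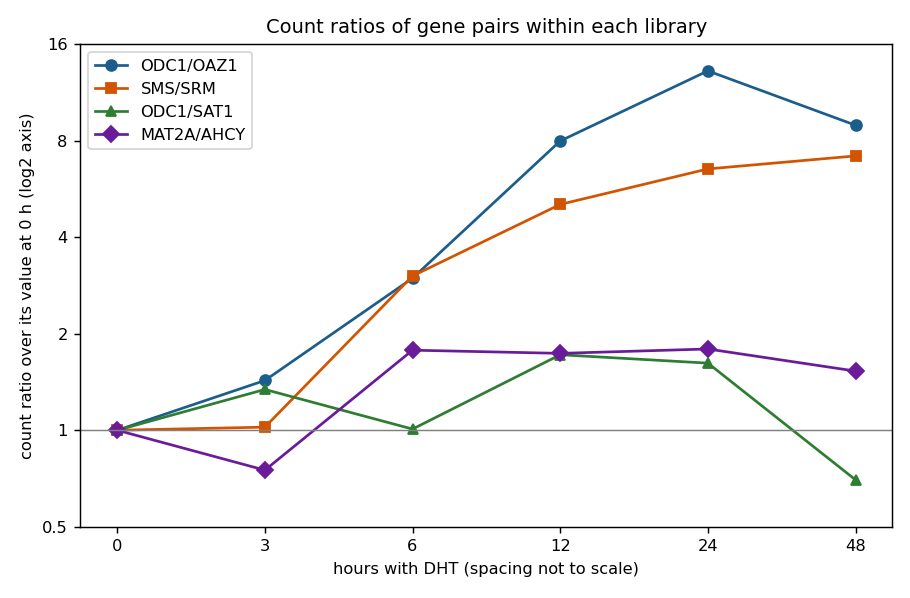
Ratio of the counts of 2 genes within each library, divided by its value at 0 h (y axis, log2 axis), in the order of time (x axis, hours with DHT, evenly spaced). The ODC1/OAZ1 ratio reaches 13.2 times its 0 h value at 24 h, the SMS/SRM ratio 7.16 times at 48 h, and the other 2 stay between 0.700 and 1.79 times.

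Levels of different genes can be compared only per length, here as CPM per kilobase of the matched GENCODE transcript, whose length may differ from the model that was counted. At 0 h the order was OAZ1 with 1012, AHCY with 269.8, ODC1 with 196, SRM with 154, SAT1 with 137.5, AMD1 with 65.9, MAT2A with 64.8, SMS with 23.5, MTAP with 4.99 and GNMT with 4.39 CPM per kilobase. The counting intervals of AMD1 and MAT2A overlapped, as did those of MTAP and GNMT. At 24 h ODC1 was first with 1728 CPM per kilobase, ahead of SAT1 with 748, OAZ1 with 675 and AMD1 with 229; SRM and SMS then had overlapping intervals, both at 149. At 48 h SAT1 and ODC1 were both at 1037 CPM per kilobase.

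The genes whose course of log2 change was nearest to that of a member were found by the root mean square difference over the 5 DHT times. Nearest to ODC1 were KLF4 (0.28), GADD45G (0.35) and SMS (0.35). The median over all genes was 2.27, and genes picked as nearest lie below it by selection. These courses are as counted, with the GC trend left in. SMS was nearest to SOCS2 (0.14), GADD45G (0.19) and KLF4 (0.19). For AMD1 they were C1orf21 (0.17), FAM18B (0.17) and NAMPT (0.18), and for SAT1 GLYATL2, ST6GALNAC1 and ORM2 (each 0.21); ORM2 has a close copy. Genes near GNMT were MICAL1 (0.31) and ORM2 (0.35). Among the 10 members the closest pairs were OAZ1 and AHCY (0.13), MAT2A and MTAP (0.25), and SRM and OAZ1 (0.29).

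Of 59 other genes of these pathways, 49 were measured, 9 were under the count minimum and 1 was not analysed here. At 24 h 6 of the 49 had risen and 5 had fallen (12.2 and 10.2%), shares near the 10.5 and 10.8% of all genes, and their median log2 change was -0.13, beside -0.09 over all genes. At 48 h 8 had risen and 1 had fallen (16.3 and 2.04%), beside 15 and 7.33% of all genes. The antizymes and antizyme inhibitors gave 0 of 4 in either direction at both times; OAZ2 had -0.71 and OAZ3 0.51 at 24 h, and AZIN1, which frees ornithine decarboxylase from antizyme, had 0.17, or -0.32 with the GC trend removed.

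In the supply of ornithine, ARG2, the mitochondrial arginase, had 448 CPM at 24 h and 451 CPM at 48 h, against 181 CPM at 0 h, 2.47 times (2.37 to 2.59) at 24 h. ASS1, which makes the precursor of arginine, fell to 63.2 CPM at 24 h, against 192.2 CPM at 0 h, and SLC7A2, a transporter of cationic amino acids, to 25.7 CPM, against 70.0 CPM. SLC7A1, the related transporter, had 338 CPM at 24 h and 299 CPM at 0 h. For oxidation and acetylation, SMOX, spermine oxidase, PAOX and SAT2 had log2 changes of -0.48, -0.25 and -0.32 at 24 h. With the GC trend removed these were -0.02, 0.36 and 0.03, so that the signs of PAOX and SAT2 turned. SATL1, a relative of SAT1, had 1.26 at a low level of 6.12 CPM, against 1.97 CPM at 0 h.

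For transport, SLC18B1, listed as C6orf192, fell to 5.49 CPM at 24 h, against 15.3 CPM at 0 h, and SLC22A3, an organic cation transporter, rose at 48 h to 3.59 CPM, against 0.835 CPM. Of the genes of hypusine, the modified lysine made from spermidine in the translation factor eIF5A, EIF5A itself had -0.46 at 24 h (-0.01 with the GC trend removed), and EIF5A2 rose at 48 h (1.09) but had -0.45 with the GC trend removed.

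In the methionine cycle MAT1A, the liver form of the S-adenosylmethionine synthetase, fell to 0.631 CPM at 24 h, against 5.77 CPM at 0 h, and had 4.32 CPM at 48 h. In the salvage of methylthioadenosine, APIP rose at 24 h (1.08) and at 48 h (1.66); with the GC trend removed it had 0.77 and 1.23. ENOPH1 of the same route had 0.85 and 1.13, and its 2-fold call at 48 h was lost with the GC trend removed (0.63 and 0.85). ADI1 had 0.99 and 0.54. ENOPH1 lies on chromosome 4 and was at -2.04 at 12 h. CTH, the transsulfuration enzyme that makes cysteine, rose at 24 h (1.24) and at 48 h (1.03, or 0.90 with the GC trend removed), whereas CBS, the enzyme before it, had -0.09 and -0.12, or 0.41 and 0.34 with the GC trend removed. MTHFD2, a mitochondrial folate enzyme, rose at 24 h (1.08) and had 0.34 at 48 h.

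Among small-molecule methyltransferases that use the same donor as GNMT, NNMT, which methylates nicotinamide, had 0.910, 5.31, 14.3, 22.3, 26.8 and 21.7 CPM in the order of time. Its ratio to 0 h at 24 h was 29.4 (16.7 to 57.2), and it was past the untreated level in every DHT library. GAMT, which makes creatine, fell to 65.7 CPM at 24 h, against 146 CPM at 0 h (-1.14, or -0.45 with the GC trend removed). On the list of sarcosine breakdown only DMGDH, which acts on the related dimethylglycine, passed the count minimum, with -0.08 at 24 h.

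**Figure D5:**
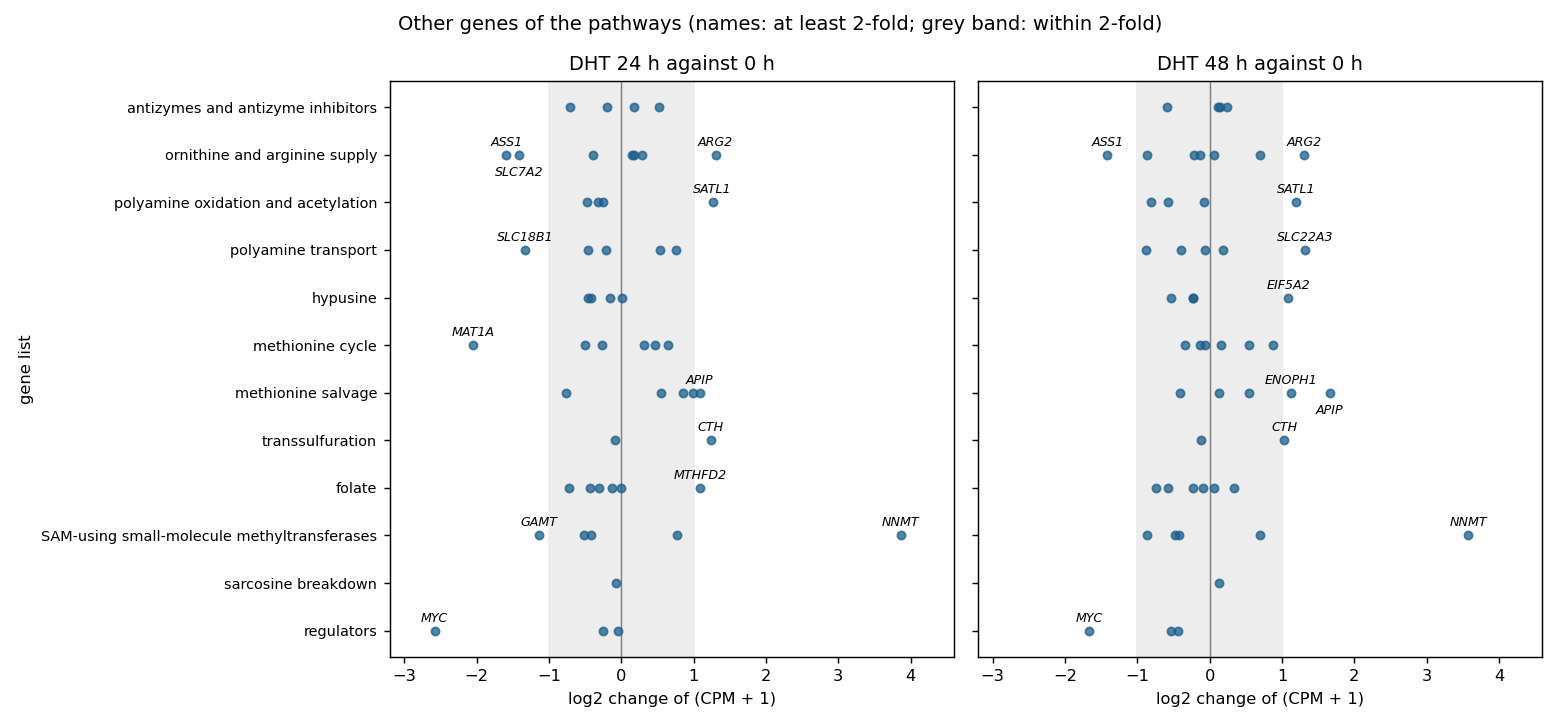
Log2 change of (CPM + 1) of the other genes of the pathways and of 3 regulators (points) by gene list (rows) at 24 h (left) and 48 h (right) against 0 h; the grey band is within 2-fold and genes outside it are named. NNMT has the largest increase at 24 h (3.86), MYC the largest decrease (-2.58), and most points lie in the band.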

How the data were processed

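The deposited table gave, for 6 libraries, the count of tags per RefSeq transcript and the RPM made from it by the authors, who per the file headers call it ppm. The total behind the RPM of a library exceeded the sum of its listed counts, which made up 86.9 to 89.5% of that total. Total RNA was sequenced on an Illumina GAIIX per the labels' protocols. The submitters' processing notes name build hg19. Not given in the sources used here: aligner, counter, strand setting and the handling of reads with several matches. Counts were used; 50 repeated lines were removed and counts of 1 symbol were added.

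Columns were tied to samples by the time in the header. Counts were scaled to CPM over the listed transcripts. Changes are differences of log2(CPM + 1) between a DHT library and the 0 h library, a scale that understates those of low genes. Ratios have exact conditional binomial intervals and levels exact Poisson intervals; no molecular identifiers are named, so these cover counting error only. With 1 library per group no test across samples exists. The limit set by a count of 0, taken as 3 counts, was 0.146 to 0.228 CPM. The GC trend was a lowess curve (span 0.3) on the GC content of GENCODE v29 transcripts, matched by accession for 93.5% of genes. Scripts ran in Python 3.11.15 with statsmodels 0.14.6 and scipy 1.17.1 and were tested on simulated data.

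The members, gene lists and alternatives were chosen with earlier results of these data known. Genes named are the 10 members; pathway genes past 2-fold at 24 or 48 h, otherwise up to 2 per list; the 3 nearest genes in likeness; and a list of regulators. Of these, 2 genes are not reported here. SLC7A1, AZIN1, SMOX, PAOX, SAT2, ADI1, EIF5A and CBS were named after their values were seen. Sequences are from RefSeq on GRCh38.p14 and were matched by symbol for all 10 members; the counts are on hg19, so no position of a count is printed. The windows are those before the listed starts and can overlap annotated exons.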

Additional observations from a re-analysis of the deposited data

How the results depend on the processing

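The 50 log2 changes of members (10 genes at 5 times) kept their side of 2-fold under the denominator of the deposited RPM, the median of ratios, TMM, pseudocounts of 0.25 and 5 CPM, and scaling on genes outside chromosomes 4 and 15, the last chosen after seeing the data; shifts were at most 0.67. SRM and MTAP at 24 h, both near 0, changed sign with the median of ratios and TMM. With the GC trend removed 46 kept their side; AMD1, SMS and SAT1 at 6 h and AMD1 at 12 h did not. The sign changed in 8 of the 50, none past 2-fold either way: AMD1 at 3 h, SRM at 6, 12 and 24 h, MTAP at 6 and 48 h and MAT2A at 12 and 48 h. By the same step, members higher at 6 h numbered 1, to be read beside the lower number of all genes given below. TMM moved the median of all genes at 24 h from -0.09 to 0.085 and gave 1727 genes higher and 949 lower at 24 h, beside 1249 and 1287, and 107 and 73 at 3 h, beside 89 and 103.

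With 1.5-fold in place of 2-fold, 1 of the 10 members was higher at 3 h, and members lower numbered 1, 1, 1 and 3 at 3, 12, 24 and 48 h. Of the 49 other pathway genes, 10 were then higher at 6 h and 11 at 24 h, and 1, 6, 6, 8 and 6 lower in the order of time. Of all 11916 genes, 300, 3397, 2912, 2569 and 3032 were higher, and 969, 1600, 2069, 2884 and 2621 lower. With a pseudocount of 5 CPM other pathway genes higher were 0, 2, 3 and 4 at 3, 6, 12 and 48 h and lower 3 at 24 h; all genes higher were 38, 1132 and 809 at 3, 6 and 12 h and lower 19, 151, 580, 691 and 473. With 0.25 CPM all genes at 3 h were 134 higher and 179 lower. With the GC trend removed other pathway genes higher were 2, 2 and 5 at 6, 12 and 48 h and lower 3 at 48 h; all genes higher were 423, 441, 790 and 798 from 6 h on, and lower 48, 174, 733 and 537 at 3, 6, 24 and 48 h. The median of ratios gave 3 other pathway genes higher at 6 h, a mean of at least 100 counts 857 genes lower at 24 h, and leaving out chromosomes 4 and 15 451 genes lower at 12 h. Beyond how each alternative is built, the cause was not tested. No paired analysis was possible because each group had 1 library. Depth limits GNMT, with 62 counts at 0 h, most among the members.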

Other observations

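SMS and SAT1, which both rose, lie on chromosome X, with 6 protein-coding genes between them in the RefSeq table on GRCh38.p14. The 3 of these that were measured, DDX53, PRDX4 and ACOT9, had log2 changes of 0.23 to 0.63 at 24 h, when none was past 2-fold; 1 of the 3 was past 2-fold higher at 6 h and 1 at 48 h.

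Of the 10 members 4 have an annotated gene on the opposite strand that overlaps an exon, and without a stated use of strand their reads cannot be told apart. OAZ1, MTAP and AHCY also have exons overlapped by annotated genes on the same strand, which strand would not separate. PEX6, opposite GNMT, had 37.1 CPM at 24 h and 63.8 CPM at 0 h, and GGCX, opposite MAT2A, had 44.1 CPM and 59.5 CPM. Pseudogenes named after the gene are listed for 7 members, with 8 for AHCY and 4 for AMD1; how reads shared with them were counted is not given in the sources used here.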
